A study of Mus musculus with 4 samples.

Results

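The 40 genes described here encode kinases, cyclins, motors and kinetochore proteins of G2 and mitosis. They were chosen by name, and all 40 were found among the 16555 genes of a deposited table of normalized counts. CD45+CD3+CD4+ T cells had been sorted from the colons of Rag1-/- recipients, mice without T and B cells of their own, and their RNA was sequenced. The recipients had been given CD4+CD25-CD45RBhi T cells 6 weeks earlier and had colitis. There were 4 libraries. In 2 of them the donors carried CK2α fl/fl alleles with the dLck-Cre transgene, whose distal Lck promoter drives Cre recombinase in mature T cells. In the other 2 the donors carried the same CK2α fl/fl alleles without Cre. Floxed alleles, the Rag1-/- host and colitis were thus shared by both groups. The comparison asks how these genes differ when the donors carry the Cre that is meant to delete CK2α, the catalytic subunit of protein kinase CK2. No label states that replicates are separate animals, and p-values here measure only the spread between these samples, part of which may be technical.

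A dividing cell makes its mitotic proteins late in the cycle and destroys them when division ends. Cyclin A2 and the B cyclins activate the kinase CDK1, Polo-like and Aurora kinases build the spindle, and kinetochores tie chromosomes to it. The anaphase-promoting complex, switched on by CDC20, then marks securin and cyclin B for destruction so that sister chromatids separate. Most of these genes are silent in resting T cells and are switched on when a T cell is activated and divides. Many of their promoters hold a short element named CHR (cell cycle genes homology region) near the start of transcription, bound by the DREAM and MuvB complexes, and CCAAT boxes upstream of it, bound by NF-Y.

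RefSeq promoter windows (GRCm38.p6, 250 bases before to 50 bases after each start) matched 32 of the 40 genes, with 34 windows. Kif20a, Ccna2, Incenp, Stmn1, Tpx2, Foxm1, Aurkb and Cdc25c had no match. The windows of 4 genes are shown because these genes lie at the ends of the range of differences described below: Cenpa passed the test as lower, Nusap1 had the next lowest difference, and Plk1 and Aurka were the 2 with a difference above 0. Capitals mark the CHR letters, TTTGAA or TTCGAA, and the CCAAT letters, searched on both strands, so that a match on the opposite strand reads as the reverse complement.
Cenpa (chr5:30666636-30666935, plus strand): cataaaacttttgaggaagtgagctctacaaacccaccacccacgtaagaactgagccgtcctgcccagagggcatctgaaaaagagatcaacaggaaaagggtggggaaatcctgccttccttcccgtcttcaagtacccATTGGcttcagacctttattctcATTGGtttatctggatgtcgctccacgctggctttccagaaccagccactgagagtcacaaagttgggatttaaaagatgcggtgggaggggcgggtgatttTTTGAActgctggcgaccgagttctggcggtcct
Nusap1 (chr2:119618048-119618347, plus strand): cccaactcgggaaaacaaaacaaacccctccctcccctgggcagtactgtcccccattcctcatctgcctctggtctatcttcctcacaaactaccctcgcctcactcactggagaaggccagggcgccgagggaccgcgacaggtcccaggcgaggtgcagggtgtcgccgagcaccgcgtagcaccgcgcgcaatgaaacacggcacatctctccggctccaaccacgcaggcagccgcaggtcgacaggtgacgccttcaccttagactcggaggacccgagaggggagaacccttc
Plk1 (chr7:122159185-122159484, plus strand): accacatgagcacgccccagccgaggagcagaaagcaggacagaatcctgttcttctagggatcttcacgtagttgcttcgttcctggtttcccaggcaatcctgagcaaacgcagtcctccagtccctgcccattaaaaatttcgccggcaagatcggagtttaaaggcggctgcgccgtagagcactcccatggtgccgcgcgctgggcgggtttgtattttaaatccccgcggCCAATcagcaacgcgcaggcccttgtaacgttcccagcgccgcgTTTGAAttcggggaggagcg
Aurka (chr2:172370521-172370820, minus strand): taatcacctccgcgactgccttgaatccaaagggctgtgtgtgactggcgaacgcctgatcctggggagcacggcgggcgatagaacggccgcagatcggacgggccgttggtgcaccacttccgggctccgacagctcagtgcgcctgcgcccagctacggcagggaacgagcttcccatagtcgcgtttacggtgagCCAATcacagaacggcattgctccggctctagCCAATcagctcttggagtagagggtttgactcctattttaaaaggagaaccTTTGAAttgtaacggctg

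In Cenpa, Plk1 and Aurka the CHR letters stood 16, 30 and 32 bases after the annotated start. The Nusap1 window held neither motif. CHR letters were found in 27 of the 32 matched genes (84.4%), against 16.8% of the 10896 tested genes with a window. Within 50 bases of the start they were found in 25 of the 32 (78.1%), against 4.50%. CCAAT letters were found in 25 of the 32 (78.1%), against 42.1%. Genes of DNA replication, which are switched on earlier in the cycle, held CHR letters in 6 of 29 (20.7%) and CCAAT letters in 17 of 29 (58.6%). The 5 genes without CHR letters were Birc5, Ccnb1, Cenpe, Nuf2 and Nusap1, which says only that these letters are not in these windows. A match is a description of the letters and not of binding.

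**Figure D1:**
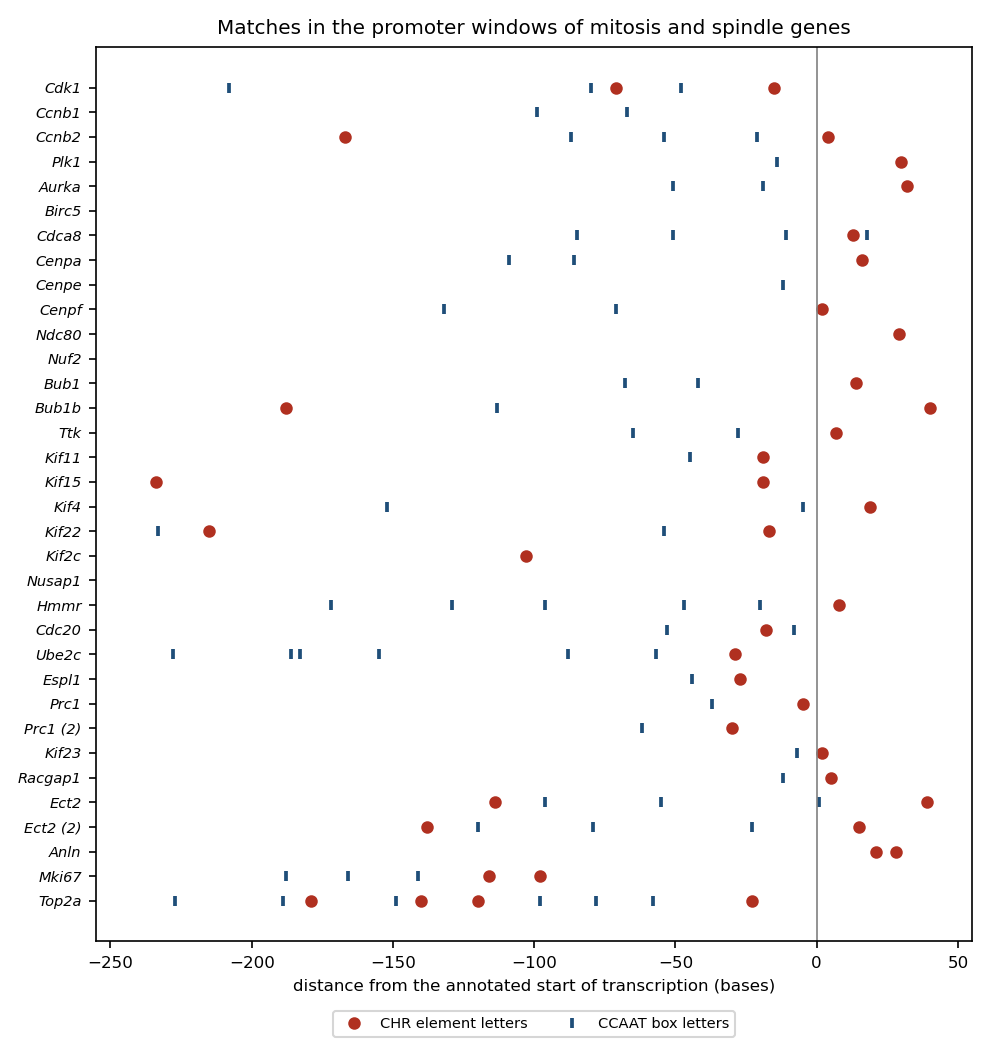
Each row is a promoter window of a mitosis or spindle gene (a second window is marked 2), and the horizontal axis is the distance in bases from the annotated start of transcription. Circles mark CHR letters and ticks CCAAT letters on either strand; CHR letters lie within 50 bases of the start in 25 of 32 genes, and the rows of Birc5, Nuf2 and Nusap1 are empty.

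Whole reads could be recovered from the normalized counts, and libraries held between 16777017 and 22422971 of them. The lowest count of any of the 40 genes in a library was 82 reads. Csnk2a1, the gene of CK2α, had 2118 and 2031 normalized counts in libraries labelled dLck-Cre, against 1534 and 1597 in fl/fl libraries, so it was not lower where Cre was labelled (log2 difference 0.41 ± 0.13 SE; limma, adjusted p = 0.108). A count per gene cannot show the loss of an exon, and all directions given here follow the labels. T cell identity genes were present in each library. Of 20, 8 fell and 0 rose by limma, against 12 lower by DESeq2, and they summed to 0.607% and 0.553% of normalized counts in libraries labelled dLck-Cre, against 0.798% and 0.780% in fl/fl libraries. Of 26 epithelial markers 22 rose and 0 fell by limma, summing to 0.773% and 0.906% in dLck-Cre and 0.314% and 0.343% in fl/fl. Of 28 myeloid markers 18 rose and 0 fell by limma, summing to 0.752% and 0.612% in dLck-Cre and 0.379% and 0.239% in fl/fl. Of all genes tested 5.75% rose and 1.22% fell by limma, and 3.02% of genes with an adjusted p fell by DESeq2. None of these epithelial and myeloid markers was at 0 in any library. Their part in the results below was not tested, and in bulk RNA fewer cells of a type and less RNA per cell cannot be told apart.

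Most of the mitosis and spindle genes had lower mean levels in libraries labelled dLck-Cre, and 1 of the 40 passed the test. The log2 difference, dLck-Cre minus fl/fl, was below 0 for 38 of 40 genes, against 52.3% of the 16490 genes tested. Its median was -0.39 over the 40 genes and -0.02 over all genes tested. Cenpa alone fell, and 0 of the 40 rose. That call stands beside 6.97% of all genes tested that passed in either direction, 5.75% higher and 1.22% lower. The adjusted p-values of the other 39 genes lay between 0.095 and 0.912 (limma). At an unadjusted p under 0.05, 11 of the 40 were lower, against 8.9% of all genes tested. DESeq2 on the recovered reads called 3 of the 40 lower, Cenpa, Ccna2 and Nusap1, against 3.02% of genes with an adjusted p, and edgeR called Cenpa alone, against 1.04%.

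Replicates differed about as much as genotypes. Summed over the 40 genes, normalized counts made up 0.205% and 0.157% of all counts in libraries labelled dLck-Cre, against 0.264% and 0.195% in fl/fl libraries, so that the groups overlapped. dLck-Cre replicate 1 lay above replicate 2 for 39 of 40 genes, with a median gap of 0.35 (log2), against 49.1% of all genes tested. fl/fl replicate 1 lay above replicate 2, also for 39 of 40, with a median gap of 0.43, against 49.3% of all genes. fl/fl replicate 1 was the highest library for 36 of the 40 genes (25.3% of all genes), and dLck-Cre replicate 2 was the lowest for 36 (30.1% of all genes). For 24 genes the gap between the fl/fl replicates exceeded the difference between genotypes. Both dLck-Cre libraries lay below both fl/fl libraries for 19 of the 40 genes, against 27.4% of all genes tested, and the groups overlapped for 21. The median difference was -0.57 without dLck-Cre replicate 1, -0.23 without dLck-Cre replicate 2, -0.17 without fl/fl replicate 1 and -0.62 without fl/fl replicate 2.

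**Figure D2:**
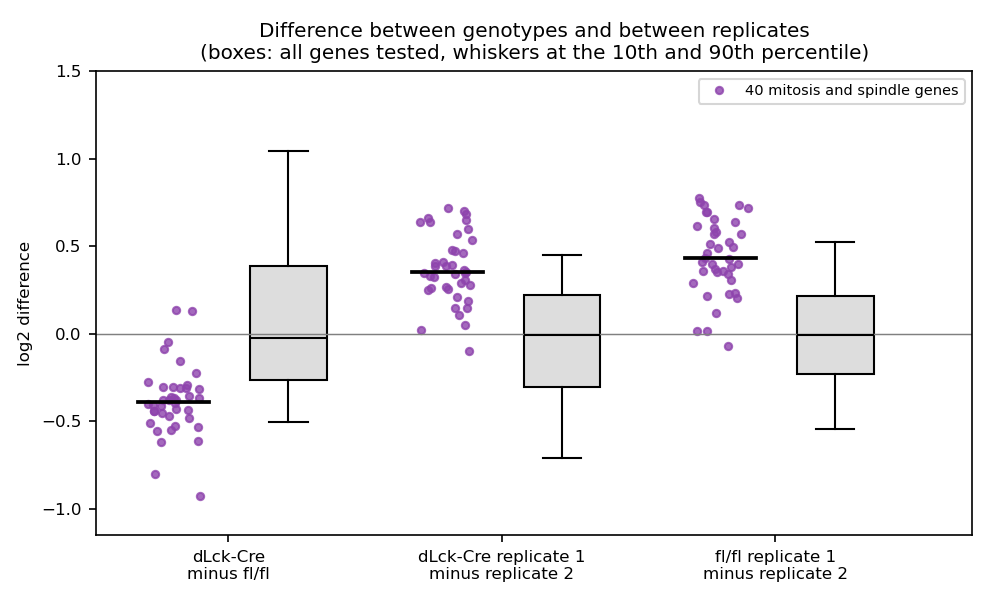
The vertical axis is a log2 difference, between genotypes and between the replicates of each group; points are the 40 mitosis and spindle genes with their median as a bar, and boxes run between the quartiles of all genes tested. The 40 genes have medians of -0.39 between genotypes, 0.35 between dLck-Cre replicates and 0.43 between fl/fl replicates, while the medians of all genes lie near 0.

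Cenpa kept that order between the dLck-Cre replicates, but in fl/fl its replicate 2 was slightly above replicate 1. It encodes CENP-A, the histone H3 variant that marks centromeres and carries the kinetochore (ENSMUSG00000029177.9; GRCm38 chromosome 5, 30666777 to 30674830, plus strand). Cenpa had 949 and 881 normalized counts in libraries labelled dLck-Cre, against 1697 and 1783 in fl/fl libraries. The replicates of each group lay close together and the groups far apart. The means were 915 ± 48.3 in dLck-Cre and 1740.1 ± 60.6 in fl/fl (SD, n = 2 each). The difference was -0.93 ± 0.13 (log2, SE), with an adjusted p of 0.0195 by limma. It was the single gene of the 40 that was highest in fl/fl replicate 2. As a share of the summed counts of the 40 genes it made up 2.64% and 3.06% in dLck-Cre and 3.34% and 4.68% in fl/fl. With dLck-Cre replicate 2 left out the difference was -0.87, which limma and edgeR no longer called (adjusted p = 0.0753 and 0.0710), whereas DESeq2 did (adjusted p = 0.0223). In those fits 0, 0.0744% and 1.19% of all genes were called lower.

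The other 7 kinetochore and checkpoint genes lay between -0.62 and -0.31 and none passed by limma, edgeR or DESeq2; 1 of them, Bub1b, had an unadjusted p under 0.05. Ndc80, a subunit of the complex that grips microtubules, had 386 and 322 normalized counts in libraries labelled dLck-Cre, against 538 and 419.8 in fl/fl libraries (log2 difference -0.43 ± 0.20 SE). Its partner Nuf2 had 338 and 243 in dLck-Cre, against 569.5 and 341 in fl/fl (-0.62 ± 0.28), and dLck-Cre replicate 1 nearly reached fl/fl replicate 2. The checkpoint kinase gene Bub1 had 350.2 and 275 in dLck-Cre, against 491 and 344 in fl/fl, and there the groups overlapped (-0.40 ± 0.23). Bub1b, the gene of BUBR1, differed by -0.44 ± 0.18, and Ttk, the gene of the kinase MPS1, by -0.41 ± 0.24, both without overlap. Cenpe, a kinetochore motor, differed by -0.32 ± 0.15 without overlap, and Cenpf by -0.31 ± 0.21 with overlap.

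Of the 8 genes of mitotic entry 6 lay below 0, and 0 passed by limma or edgeR; Ccna2 had an unadjusted p under 0.05. Cdk1, the central mitotic kinase, had 759.9 and 579.5 normalized counts in libraries labelled dLck-Cre, against 1124 and 722 in fl/fl libraries (log2 difference -0.44 ± 0.24 SE). Its groups overlapped, because fl/fl replicate 2 was below dLck-Cre replicate 1. Ccna2, the gene of cyclin A2, had 1274 and 1016 in dLck-Cre, against 2027 and 1498 in fl/fl, without overlap (-0.61 ± 0.19; adjusted p = 0.104 by limma and 0.0440 by DESeq2). Ccnb1, the gene of cyclin B1, had 627 and 389.6 in dLck-Cre, against 788 and 472 in fl/fl, with overlap (-0.30 ± 0.30). Ccnb2 differed by -0.47 ± 0.22 without overlap. Cdc25c, a phosphatase that activates CDK1, differed by -0.35 ± 0.31 with overlap. Foxm1, a transcription factor that acts with MuvB at mitotic promoters, had 169 and 182 in dLck-Cre, against 219 and 217 in fl/fl. Its replicates lay close together and its groups did not overlap, but the difference of -0.31 ± 0.20 did not pass (limma, adjusted p = 0.383).

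Plk1 and Aurka had the only differences above 0 among the 40. Plk1, the Polo-like kinase of mitotic entry, had 376 and 273 normalized counts in libraries labelled dLck-Cre, against 331 and 257 in fl/fl libraries (log2 difference 0.13 ± 0.23 SE; limma, adjusted p = 0.772). Aurka, the Aurora kinase of spindle poles, had 336 and 204 in dLck-Cre, against 274 and 208 in fl/fl (0.13 ± 0.28; adjusted p = 0.822). In both genes the groups overlapped and the first replicate of each group was above the second, and the sign turned without dLck-Cre replicate 1 or without fl/fl replicate 2. As shares of the 40 genes' summed counts the groups did not overlap. Plk1 made up 1.05% and 0.946% in dLck-Cre and 0.651% and 0.676% in fl/fl. Aurka made up 0.932% and 0.708% in dLck-Cre and 0.541% and 0.545% in fl/fl. In all, 10 of the 40 genes had a higher share in both dLck-Cre libraries, while 51.9% of all genes tested were higher when set against the same sum. Another 5, Top2a, Ccna2, Kif11, Cenpa and Nusap1, had a lower share in both, against 2.77% of all genes. The 40 genes had a median difference of -0.39, against -0.02 over all genes tested. Both percentages of all genes therefore depend on the sum used as divisor, and they cannot show an excess or a lack among the 40. The shares of the 40 genes carry no test.

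The 4 genes of the chromosomal passenger complex, which corrects faulty attachments and guides cytokinesis, lay between -0.40 and -0.36, and 0 passed by limma, edgeR or DESeq2; Incenp had an unadjusted p under 0.05. Aurkb, the kinase of the complex, had 384 and 314 normalized counts in libraries labelled dLck-Cre, against 519.7 and 391 in fl/fl libraries (log2 difference -0.38 ± 0.21 SE), and the groups nearly met. Birc5, the gene of survivin, had 527 and 333 in dLck-Cre, against 685 and 434 in fl/fl, with overlap (-0.38 ± 0.29). Incenp, the scaffold, differed by -0.40 ± 0.16 without overlap, and Cdca8, the gene of borealin, by -0.36 ± 0.22 with overlap.

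The 9 spindle motor and assembly genes had a median difference of -0.45, and 0 passed by limma or edgeR; 3, Nusap1, Kif11 and Stmn1, had an unadjusted p under 0.05. Nusap1, which binds spindle microtubules, had 635 and 493 normalized counts in libraries labelled dLck-Cre, against 1252 and 761 in fl/fl libraries. Its groups did not overlap, but the fl/fl replicates lay far apart. The log2 difference of -0.80 ± 0.25 (SE) had an adjusted p of 0.106 by limma and 0.0196 by DESeq2. Kif11, the kinesin that pushes spindle poles apart, had 1697 and 1334 in dLck-Cre, against 2698 and 1803 in fl/fl, without overlap (-0.55 ± 0.22). Stmn1, the gene of the microtubule-destabilizing protein stathmin, had 1340.1 and 1175 in dLck-Cre, against 2118 and 1510.1 in fl/fl, also without overlap (-0.51 ± 0.19). Tpx2, an activator of Aurora A, had 729 and 575 in dLck-Cre, against 976 and 656 in fl/fl, with overlap (-0.31 ± 0.22). The kinesin genes Kif2c, Kif22, Kif4 and Kif15 differed by -0.55 ± 0.28, -0.45 ± 0.25, -0.41 ± 0.21 and -0.29 ± 0.20, and the spindle gene Hmmr by -0.37 ± 0.27; of these only Kif4 did not overlap.

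Of the 9 genes of anaphase and cytokinesis 0 passed by limma, edgeR or DESeq2; Prc1 and Racgap1 had an unadjusted p under 0.05. Cdc20, the activator of the anaphase-promoting complex, had 745 and 478 normalized counts in libraries labelled dLck-Cre, against 721 and 558 in fl/fl libraries (log2 difference -0.09 ± 0.24 SE). The dLck-Cre libraries held both the highest and the lowest value. Ube2c, a ubiquitin-conjugating enzyme of that complex, had 385 and 305 in dLck-Cre, against 569 and 350.2 in fl/fl (-0.38 ± 0.26). Espl1, the gene of separase, had 392 and 264 in dLck-Cre, against 474 and 319 in fl/fl (-0.27 ± 0.27), and the groups of both genes overlapped. Kif23, a motor of the central spindle, had 585 and 529 in dLck-Cre, against 646 and 509 in fl/fl (-0.04 ± 0.18). Its partner Racgap1 had 1117 and 842 in dLck-Cre, against 1468 and 1251 in fl/fl, without overlap (-0.48 ± 0.18). Prc1, which bundles central spindle microtubules, had 977 and 821 in dLck-Cre, against 1392 and 1197 in fl/fl, also without overlap (-0.53 ± 0.16; limma, adjusted p = 0.0950). Kif20a, a central spindle motor, differed by -0.44 ± 0.30, Anln, the gene of the scaffold anillin, by -0.23 ± 0.25, and Ect2, which activates RhoA at the cleavage site, by -0.16 ± 0.21, all with overlap.

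Both common markers of dividing cells were lower in dLck-Cre without passing by limma, edgeR or DESeq2, though both had an unadjusted p under 0.05. Mki67, the gene of the Ki-67 protein that coats mitotic chromosomes, had 4394 and 3972 normalized counts in libraries labelled dLck-Cre, against 5828 and 4976 in fl/fl libraries (log2 difference -0.37 ± 0.14 SE; limma, adjusted p = 0.168). Top2a, a topoisomerase that untangles sister chromatids, had 7704 and 6019.8 in dLck-Cre, against 11551 and 8374 in fl/fl (-0.53 ± 0.20; adjusted p = 0.154). In both genes the groups did not overlap, and the fl/fl replicates differed by more than the nearest libraries of the 2 groups.

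**Figure D3:**
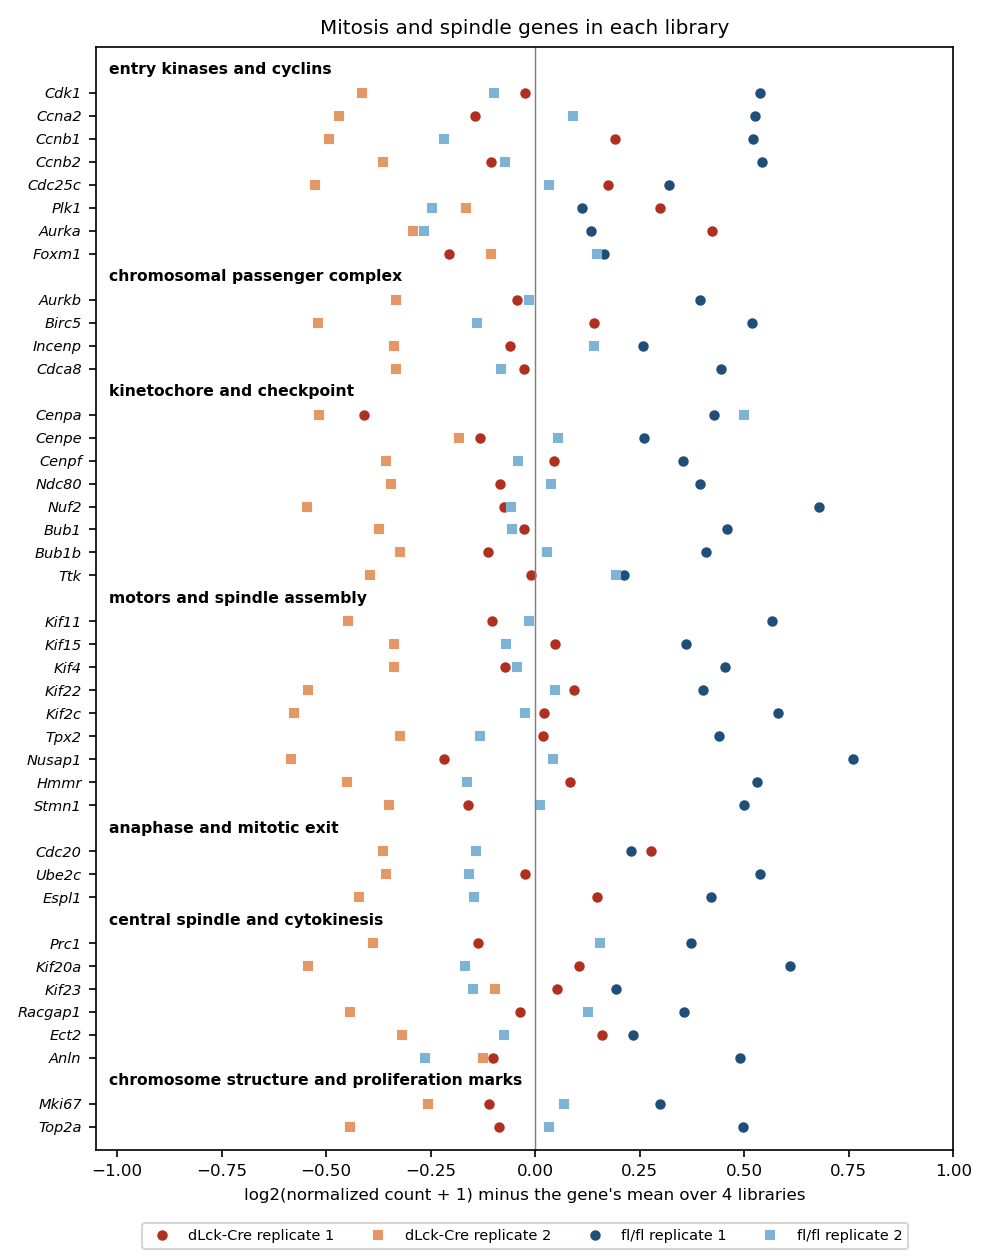
Each row is a gene, grouped by role, and each point is 1 library's log2(normalized count + 1) minus the gene's mean over the 4 libraries (red and orange, dLck-Cre; dark and light blue, fl/fl). fl/fl replicate 1 is the highest for 36 of 40 genes and dLck-Cre replicate 2 the lowest for 36, whereas the libraries of each group sit together for Cenpa.

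Per kilobase of merged exons, Top2a was the most abundant of the 40, with a mean of 761 normalized counts per kilobase in dLck-Cre and 1105 in fl/fl. Stmn1 followed with 654 in dLck-Cre and 944 in fl/fl, then Ccnb2 with 419.9 in dLck-Cre and 592 in fl/fl, and Mki67 with 416 in dLck-Cre and 537 in fl/fl. Cenpa had 156 in dLck-Cre and 297 in fl/fl on this scale. Merged exons join those of all annotated transcripts of a gene, 5860 bases for Cenpa. The order of genes on this scale therefore depends on the annotation. Cdc25c was the least abundant, below Ttk with 22.7 in dLck-Cre and 29.8 in fl/fl. The T cell receptor chain Cd3e had 270.2 in dLck-Cre and 412 in fl/fl. Other T cell genes lay above Top2a. Cd3d had 1587 in dLck-Cre and 2260 in fl/fl, Cd3g 2514 and 3662, and Cd4 3231 and 4570. The strand setting of the counting was not stated, so reads of overlapping genes cannot be told apart. Exons on the opposite strand cover 29.3% of the Kif20a exons (Cdc23), 22.8% of Ube2c (Tnnc2), 15.1% of Kif4 (Pdzd11), 12.7% of Cdc25c (Gm3550), 12.5% of Ccna2 (Exosc9) and 11.1% of Prc1 (Rccd1). Tnnc2 and Gm3550 were not among the 16555 genes with deposited counts, whereas Cdc23, Pdzd11, Exosc9 and Rccd1 were. Processed copies of Ccnb1, Ccnb2, Kif4, Kif22 and Stmn1 could share reads with them, which makes those values uncertain.

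Of the 20 T cell identity genes 19 also lay below 0. Cd3e, a signalling chain of the T cell receptor, had 1053 and 1153 normalized counts in libraries labelled dLck-Cre, against 1574 and 1789.6 in fl/fl libraries, and fell (log2 difference -0.61 ± 0.14 SE; limma, adjusted p = 0.0482). Cd3g (-0.55), Cd3d (-0.51) and Cd4 (-0.50) did not pass by limma or edgeR and were lower by DESeq2 (adjusted p = 0.0191, 0.0311 and 0.0230). Cd3e itself did not pass by limma without any 1 of the 4 libraries (adjusted p = 0.0762 to 0.208). The median over the 20 T cell identity genes was -0.53, and the median gap between fl/fl replicates was 0.00, where the 40 genes had 0.43. The ratio of the 40 genes' summed counts to those of the T cell identity genes was 0.338 and 0.284 in dLck-Cre, against 0.330 and 0.250 in fl/fl, so that the groups overlapped. Scaling all values to the T cell identity genes moved the median of all genes by 0.50. On that scale the 40 genes had a median of 0.11, and 9 lay below 0, against 10.4% of all genes tested. Cenpa still passed as lower (-0.42; limma, adjusted p = 0.0455). Of all genes 30.3% then passed, 30.0% higher and 0.34% lower, while 0 of the 40 rose. Plk1 (0.64) and Aurka (0.63) had the highest differences of the 40 on that scale and did not pass (limma, adjusted p = 0.0661 and 0.111).

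**Figure D4:**
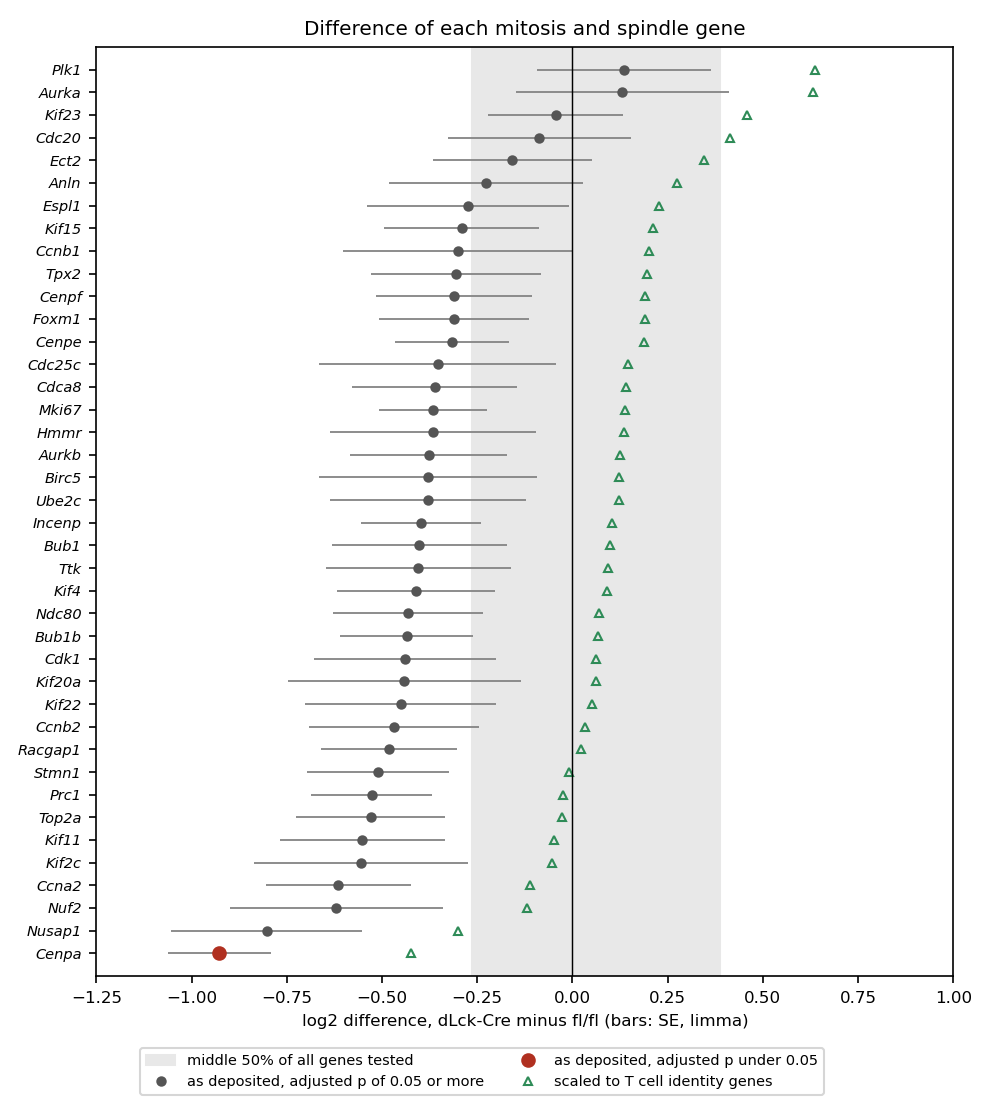
Filled points are log2 differences of the 40 genes, dLck-Cre minus fl/fl, with SE bars from limma, and open triangles the same after scaling to T cell identity genes; the grey band runs from the lower to the upper quartile of all genes tested. As deposited, 38 genes lie left of 0 and Cenpa passed; after scaling, 9 lie left of 0.

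Other genes of chromosome segregation and mitotic entry had differences on the same side, and 0 passed by limma or edgeR. The counts that follow stand beside 52.3% of all genes tested that lay below 0. Of all genes 27.4% were lower without overlap, and 8.9% were lower at an unadjusted p under 0.05. Of 31 further kinetochore genes 28 lay below 0 (median -0.34), with 7 at an unadjusted p under 0.05, between Cenpp (-0.75) and Cenpu (0.12). Zwint, a kinetochore scaffold gene, had 1780.2 and 1652 normalized counts in libraries labelled dLck-Cre, against 2254 and 2305 in fl/fl libraries (limma, adjusted p = 0.106). Of 34 further spindle and cytokinesis genes 30 lay below 0 (median -0.33), with 4 at an unadjusted p under 0.05, between Depdc1b (-0.92) and Iqgap3 (0.15); DESeq2 called Aspm, a spindle pole gene, which differed by -0.61. All 8 condensin genes lay below 0 without overlap (median -0.45), 7 of them at an unadjusted p under 0.05. Ncapg, a subunit of condensin I, had 814 and 629 in dLck-Cre, against 1149 and 995 in fl/fl (adjusted p = 0.0981). Of 19 checkpoint and cohesion genes 18 lay below 0 (median -0.25), with 4 at an unadjusted p under 0.05. Rad21, a cohesin subunit, had 2084 and 2190.5 in dLck-Cre, against 2944 and 2888 in fl/fl (adjusted p = 0.0789). Genes of the anaphase-promoting complex had a median of -0.18 over 17 genes, with 2 at an unadjusted p under 0.05, and 13 regulators of mitotic entry -0.21, also with 2. Among these regulators DESeq2 called Cks1b, the gene of a CDK1-binding protein, which differed by -0.71.

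Regulators upstream of mitosis, in lists of 20, 9 and 14 genes, gave 3 calls by limma and by edgeR, and 5 by DESeq2. The limma calls stand beside 6.97% of all genes tested that passed in either direction. The DESeq2 calls stand beside 1768 of 13932 genes with an adjusted p. Both numbers of calls are near what those shares give. Lin54, the MuvB subunit that binds the CHR element, had 1337 and 1447 normalized counts in libraries labelled dLck-Cre, against 2153 and 2234 in fl/fl libraries, and fell (log2 difference -0.66 ± 0.13 SE; limma, adjusted p = 0.0332). It was the 1 limma call among 20 DREAM, MuvB, MYB and E2F genes (median -0.19), of which DESeq2 called 2, and after scaling to T cell identity genes its difference was -0.15 (adjusted p = 0.381). Rb1, the retinoblastoma gene, had 761 and 849 in dLck-Cre, against 1117 and 1228 in fl/fl, a difference of -0.54 that did not pass by limma (adjusted p = 0.0712) and was lower by DESeq2 (adjusted p = 0.0481). Of 9 G1 cyclins and kinases Ccnd1, the gene of cyclin D1, rose, with 875 and 986 in dLck-Cre, against 298 and 492 in fl/fl (1.28 ± 0.24; adjusted p = 0.0301). Of 14 CDK inhibitor and quiescence genes the transcription factor gene Klf4 rose, with 1057 and 1634 in dLck-Cre, against 748 and 525 in fl/fl (1.07 ± 0.25; adjusted p = 0.0482). Epithelial and myeloid markers rose in the same libraries, by medians of 1.27 and 1.15, and their part in Ccnd1 and Klf4 was not tested. Left out one at a time, all 4 libraries ended the limma call of Lin54 (adjusted p = 0.0622 to 0.104), 2 of them, dLck-Cre replicate 2 and fl/fl replicate 2, that of Klf4 (adjusted p = 0.0120 to 0.171 over the 4 fits), and dLck-Cre replicate 2 that of Ccnd1 (adjusted p = 0.00907 to 0.112). Btg1, an antiproliferative gene, differed by -0.50 and Cdkn2d, a CDK4 inhibitor gene, by -0.61, without passing by limma; DESeq2 called Btg1 lower (adjusted p = 0.0213).

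Of 36 genes of DNA replication, which act before mitosis, 35 lay below 0, against 52.3% of all genes tested, with a median of -0.28. Mcm6, a subunit of the replicative helicase, alone fell by limma, edgeR or DESeq2, with 2922 and 2591 normalized counts in libraries labelled dLck-Cre, against 4089 and 4457 in fl/fl libraries (log2 difference -0.63 ± 0.13 SE; limma, adjusted p = 0.0371); after scaling to T cell identity genes it differed by -0.13 and did not pass, nor did it pass without dLck-Cre replicate 2 or either fl/fl replicate (adjusted p = 0.0338 to 0.133 over the 4 fits). fl/fl replicate 1 was the highest library for 30 of the 36 (25.3% of all genes). They summed to 0.197% and 0.175% of normalized counts in dLck-Cre, against 0.244% and 0.192% in fl/fl.

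Markers of further cell types lay on both sides of 0. The counts that follow stand beside 52.3% of all genes tested that lay below 0. By limma 5.75% of all genes rose and 1.22% fell, and DESeq2 called 1768 of 13932 in either direction. Of 8 markers of crypt progenitors, dividing cells of the epithelium, 3 lay below 0, and the median was 1.14. Their sums, which weigh the most abundant genes most, overlapped. These were 0.0407% and 0.0482% of normalized counts in dLck-Cre, against 0.0428% and 0.0416% in fl/fl. Most of each sum came from Axin2 and Cd44, so the overlap says little about the other genes of the list. Of the 8, 5 were higher and 2 lower without overlap, against 4572 and 4524 of the 16490 genes tested. Ephb2 rose (1.09), a call that ended without dLck-Cre replicate 2 or fl/fl replicate 1 (limma, adjusted p = 0.0128 to 0.125 over the 4 fits), and DESeq2 called 3 higher, Ephb2, Ephb3 and Sox9. Lgr5, an intestinal stem cell gene, had 47.0 and 34.4 normalized counts in libraries labelled dLck-Cre, against 12.5 and 16.6 in fl/fl libraries, and did not pass (limma, adjusted p = 0.0873). Smoc2, another stem cell marker, had 330.3 and 226 in dLck-Cre, against 359.6 and 493 in fl/fl, a difference of -0.62 that did not pass either (limma, adjusted p = 0.180). Of 10 CD8 T and NK cell markers 3 lay below 0 (median 0.66), and their sums overlapped, at 0.0571% and 0.0615% of normalized counts in dLck-Cre, against 0.0315% and 0.0734% in fl/fl. Klre1, a killer cell receptor gene, rose by limma (1.72), a call that ended without either dLck-Cre replicate or without fl/fl replicate 1, and DESeq2 called 3 higher, Klre1, Klrc1 and Eomes. Gzma, the gene of granzyme A, had 1535 and 1204 in dLck-Cre, against 898 and 8305 in fl/fl, so that the fl/fl replicates held both the highest and the lowest value. Gzma supplied most of the 14331 normalized counts of the 10 CD8 T and NK cell markers in fl/fl replicate 2. The overlap of their sums came from this gene. Of the 10, 6 were higher and 0 lower without overlap. Of 14 stromal markers 0 passed by limma or edgeR (median 0.90). DESeq2 called Lum higher (1.70) and Pecam1, an endothelial gene, lower (-0.60), and of 6 at an unadjusted p under 0.05 by limma, 4 were higher and 2, Pecam1 and Pdgfrb (-0.93), lower. Of 12 B and plasma cell markers 5 were tested here, and 3 of these rose by limma (median 1.24).

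**Figure D5:**
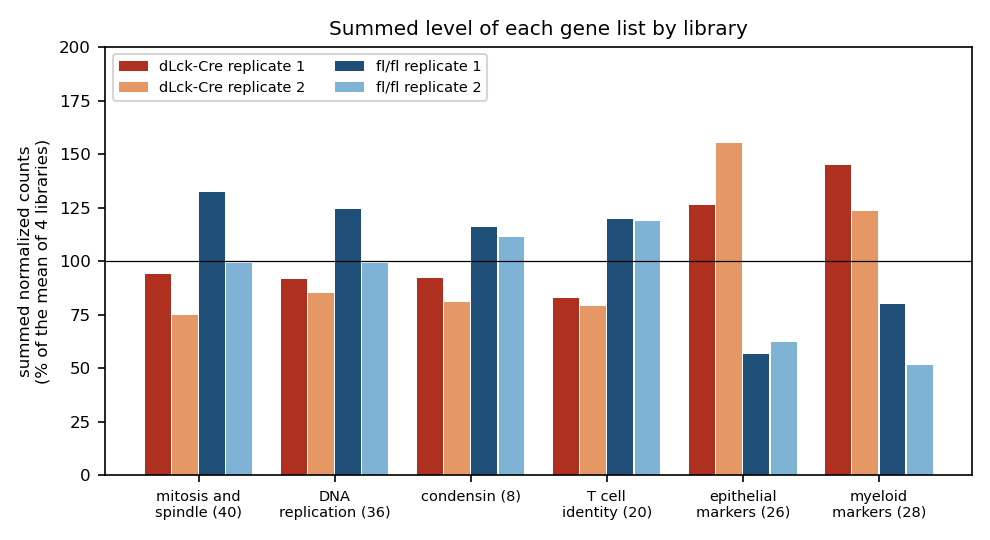
Bars give the summed normalized counts of a gene list in each library, as a percentage of the mean over the 4 libraries, with the number of genes in parentheses. The 40 mitosis and spindle genes stand at 93.7% and 75.0% in dLck-Cre and 132% and 99.1% in fl/fl, T cell identity genes at 82.9% and 79.0% in dLck-Cre and 119.6% and 118% in fl/fl, and epithelial markers at 126% and 155% in dLck-Cre and 56.4% and 62.4% in fl/fl.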

How the data were processed

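RNA of sorted colonic CD4+ T cells was sequenced by a provider, per the labels, and the build was mm10, per the submitters' processing notes. Aligner, counting tool, annotation and strand setting are not given in the sources used here. Per the values and the table's own name, the deposited signal is a gene count that the authors scaled with a size factor for each library, and 100% of values were whole multiples of 1 step per library (tolerance 1e-06). The reads recovered in this way came to 16777017 and 22422971 in dLck-Cre replicates 1 and 2 and to 18517974 and 17666457 in fl/fl replicates 1 and 2. Counting error and the spread between the 2 libraries of a group were not separated.

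Tests used log2(value + 1), and differences are on that scale. A mean of 10 or more was required, which 16490 of 16555 genes met, the 40 mitosis and spindle genes among them. Genes were fitted together in limma 3.58.1 (R 4.3.3; trend option), with Benjamini-Hochberg adjustment over all genes and a threshold of 0.05. The code was tested on simulated data. Alternatives were edgeR 4.0.16 and DESeq2 1.42.0 on recovered reads (missing adjusted p-values stayed missing), pseudocounts of 0.5 and 5, no filter or a mean of 50, TMM, limma without trend, scaling to 20 T cell identity genes, a replicate block, and leaving out each library. Coordinates and exon lengths came from GENCODE vM21 (GRCm38, the assembly of mm10), where all 40 symbols matched, and promoters from RefSeq. Figures used matplotlib 3.10.9.

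The 40 genes, the other lists and the naming rule were chosen with earlier results of these data known. The rule took all 40, with values by library for called, extreme and leading genes of each role, and from other lists the smallest p-values and the extremes, not all of which are reported here. Lists are described by counts and medians, without a test.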

Additional observations from a re-analysis of the deposited data

How the results depend on the processing

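Of all genes 1150 were called, and 4995 after scaling to T cell identity genes, 1768 with DESeq2, 2096 with the replicate number as a block, 0 by limma without trend (where 2 of the 40 mitosis and spindle genes had an unadjusted p under 0.05), and 0 to 1254 without 1 library over limma, edgeR and DESeq2. Without dLck-Cre replicate 2 the tools called 0, 67 and 415. Of the 40 genes, 1 was called lower, and 3 with DESeq2, 9 with the replicate block, 0 without trend and 0 to 4 without 1 library; 0 were called higher under any alternative run. No label states whether same-numbered libraries share more than a number. Their deviations had a correlation of 0.11 across all genes, while in each group replicate 1 lay above replicate 2 for 39 of the 40 genes. Cenpa ranged from -0.98 to -0.42 over 22 alternatives and lost its call in 3, limma without trend (adjusted p = 0.115) and limma and edgeR without dLck-Cre replicate 2. The median of the 40 ranged from -0.62 to -0.13 without 1 library, with 27 to 40 genes below 0. Other pseudocounts, other filters, TMM and edgeR changed no call among the 40. Scaling to T cell identity genes moved the median to 0.11 and left 9 below 0, as it adds nearly the same amount to every gene. It turned the sign of 29 genes, Mki67 0.14, Cdk1 0.0619, Ccnb1 0.20, Ccnb2 0.0337, Aurkb 0.12, Birc5 0.12, Bub1 0.0991, Bub1b 0.0675, Cdc20 0.41, Cdc25c 0.14, Ube2c 0.12, Kif20a 0.0609, Kif23 0.46, Kif4 0.0918, Kif15 0.21, Kif22 0.0513, Tpx2 0.20, Cenpe 0.19, Cenpf 0.19, Ndc80 0.0704, Hmmr 0.14, Ttk 0.0940, Foxm1 0.19, Racgap1 0.0214, Ect2 0.34, Anln 0.28, Espl1 0.23, Incenp 0.10 and Cdca8 0.14. Leaving out 1 library turned the sign of 14 genes in at least 1 fit, with log2 differences of Ccnb1 -0.69 to 0.13, Aurka -0.23 to 0.51, Birc5 -0.74 to 0.0122, Plk1 -0.10 to 0.39, Cdc20 -0.41 to 0.25, Cdc25c -0.71 to 0.0212, Ube2c -0.73 to 0.00520, Kif20a -0.83 to 0.00950, Kif23 -0.22 to 0.16, Tpx2 -0.59 to 0.0171, Hmmr -0.71 to 0.0312, Ect2 -0.40 to 0.10, Anln -0.60 to 0.18 and Espl1 -0.58 to 0.0639. Where 1 library was left in a group, it was assumed to vary like the other group. The causes of the other changes were not tested. The lowest count of the 40 genes in a library was 82 reads, and the part of depth in these calls was not tested.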
